A study of Mus musculus with 2 samples.

Results

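The endocannabinoid system of Drd2-expressing cells of the mouse medial prefrontal cortex was described through 9 genes: the cannabinoid receptors Cnr1 and Cnr2, the enzymes Dagla, Daglb and Napepld that make the ligands, and the enzymes Mgll, Abhd6, Abhd12 and Faah that break them down. They were the probe sets of the array whose annotation named a single gene with 1 of these symbols. Each gene had 1 such probe set, so the set comprised 9 of 34472 probe sets and 9 of 22180 named genes. RNA came from adult D2Cre::RiboTag mice, in which cells that carry Cre activity from a Drd2 driver put a haemagglutinin tag on their ribosomes. Because Cre recombination is permanent, such cells can include any in which the driver was active earlier in life. Tagged ribosomes were precipitated from dissected cortex with an antibody to the tag, and the RNA on them was labelled with biotin for whole-transcript arrays. The 2 samples carry the labels of technical replicates 1 and 2, each from a pool made of 5 mice, and were taken to share it. They form 1 group, and no unprecipitated RNA, mock precipitation or other genotype was analysed here, so no enrichment or difference between conditions can be given.

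Endocannabinoids are lipid messengers that neurons make on demand from membrane lipids. The best known are 2-arachidonoylglycerol (2-AG) and anandamide. In cortex they are released mainly by the cell that receives a synapse and act backwards on CB1 receptors of the presynaptic terminal, where they lower transmitter release. Their action ends when hydrolases inside pre- and postsynaptic cells and glia cleave them.

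Values are given as log2 signals, the scale that their range points to. Because hybridisation strength differs from probe set to probe set, single genes were not ranked by level, and medians of gene groups are given as descriptions of these probe sets. Each gene was set against a background measured on the same array: the signals of 1394 olfactory and vomeronasal receptor genes, called sensory receptor genes here. A gene was called above background where it exceeded their 95th percentile (5.61 on replicate 1 and 5.66 on replicate 2) on both arrays. Of all 22180 named genes, 60.3% passed. Of 33 genes known from testis, liver and skeletal muscle, 10 passed as well. A pass alone therefore does not show that a messenger was present. All 9 endocannabinoid genes passed, and 8 of them also exceeded the highest sensory receptor gene (8.40 on replicate 1 and 8.42 on replicate 2), which 23.2% of named genes did. Cnr2 was the exception. The median of the 9 genes was 9.47, against 6.355 for all named genes and 7.90 for named genes above background. Drd2, the gene that defines the captured cells, was at 10.78 and 10.70.

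**Figure D1:**
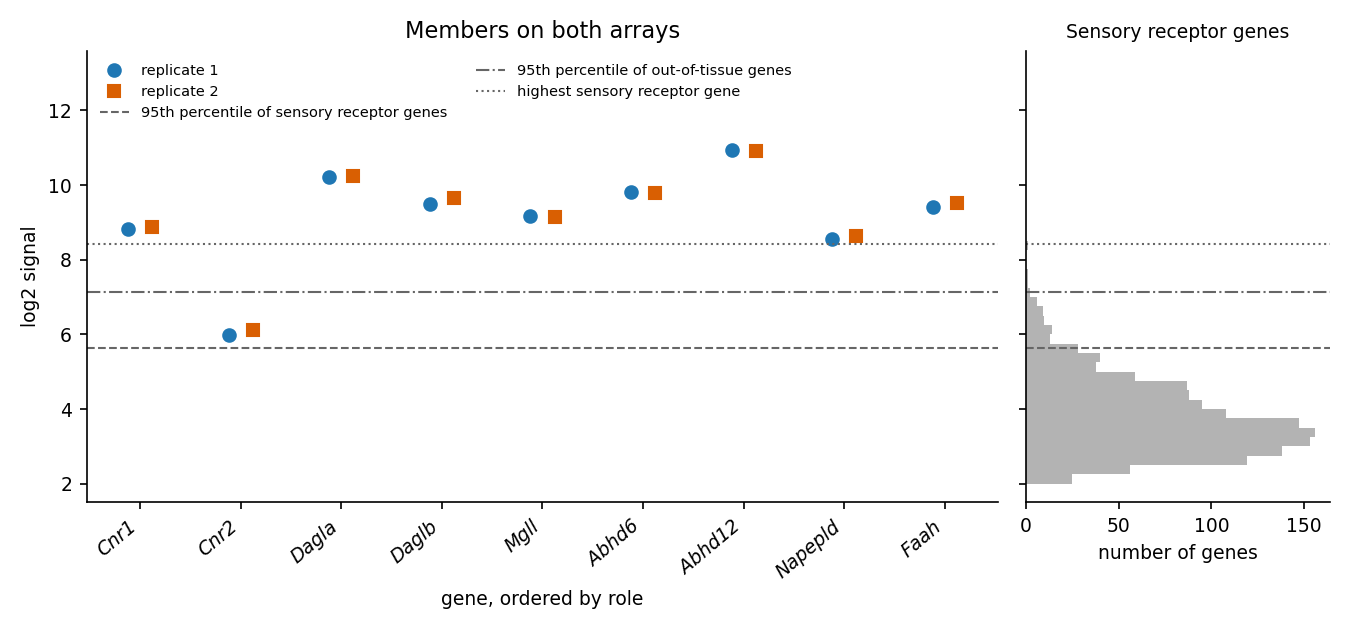
Log2 signal of the 9 endocannabinoid genes on replicate 1 (circles) and replicate 2 (squares), with thresholds drawn at their mean over both arrays; the right panel gives the number of sensory receptor genes at each mean log2 signal. Cnr2 lies near the lower threshold at 5.99 and 6.12, and the other 8 genes lie above the dotted line of the highest sensory receptor gene.

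Cnr1 encodes CB1, the main cannabinoid receptor of brain neurons, and gave clear signal. Its probe set (17412627, gene identifier 12801) read 8.83 on replicate 1 and 8.87 on replicate 2, a mean of 8.85 ± 0.03 (SD, n = 2 technical arrays). On average it stood 3.21 log2 units over the background thresholds. It exceeded the highest sensory receptor gene by 0.43 and 0.45 units on the respective arrays, so 0 of 1394 sensory receptor genes reached it on either array.

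Cnr2 encodes CB2, known mainly from immune cells, and lay close to background. Its probe set (17419959, gene identifier 12802) read 5.99 and 6.12, a mean of 6.06 ± 0.09 (SD, n = 2 technical arrays). This was 0.38 and 0.46 units over the threshold of each array. On replicate 1, 44 of 1394 sensory receptor genes (3.16%) were as high or higher, and on replicate 2, 39 (2.80%). Cnr2 did not pass their 99th percentile (6.64 on both arrays), which 45.0% of named genes did. It also lay 1.07 units under a threshold from 33 genes of testis, liver and skeletal muscle (7.24 and 7.02), which 38.5% of named genes passed and which the other 8 members all passed. Among those 33 out-of-tissue genes, 8 on replicate 1 and 7 on replicate 2 were as high as Cnr2 or higher.

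Markers of cells in which CB2 is best known were read from the same RNA. All 6 microglia markers were above background, 3 of them above the out-of-tissue threshold, with summed log2 signals of 41.8 and 42.6 on the 2 arrays. Tmem119, with a mean of 6.58, P2ry12, at 6.71, and Aif1, at 5.845, did not pass the out-of-tissue threshold. Of all named genes, 60.3% and 38.5% passed these thresholds. Of the 5 measured markers of B and T lymphocytes, 0 were above background, with summed log2 signals of 24.0 and 24.1. The sums cover different numbers of genes. The median signal was 7.16 for the microglia markers and 5.105 for the lymphocyte markers. The part of either cell type in the Cnr2 signal was not tested.

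The reference sequence before the start of Cnr2 was poor in CpG dinucleotides, the steps at which mammalian DNA is methylated. Sequences are shown for the genes with a start whose preceding 250 bases lie outside every annotated gene of the reference, namely Cnr2, Abhd6 and Napepld, because they show the CpG-poor and the CpG-rich kind of promoter side by side. They are RefSeq sequences of the build GRCm38.p6, which the sources used here do not name as the build of the array, written 5′ to 3′ on the gene's strand, with each CpG dinucleotide in capitals. The Cnr2 window is chr4:135894939-135895188 on the plus strand, the Abhd6 window chr14:8002638-8002887 on the plus strand and the Napepld window chr5:21701623-21701872 on the minus strand.
Cnr2: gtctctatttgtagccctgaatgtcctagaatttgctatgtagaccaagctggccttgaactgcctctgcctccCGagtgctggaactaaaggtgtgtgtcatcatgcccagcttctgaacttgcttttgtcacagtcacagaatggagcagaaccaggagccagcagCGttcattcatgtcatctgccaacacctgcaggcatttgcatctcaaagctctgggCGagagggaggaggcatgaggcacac
Abhd6: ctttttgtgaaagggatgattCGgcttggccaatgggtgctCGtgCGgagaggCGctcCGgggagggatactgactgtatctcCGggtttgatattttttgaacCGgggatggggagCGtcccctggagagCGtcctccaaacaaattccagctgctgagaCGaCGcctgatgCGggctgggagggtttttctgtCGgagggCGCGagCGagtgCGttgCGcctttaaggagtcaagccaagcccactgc
Napepld: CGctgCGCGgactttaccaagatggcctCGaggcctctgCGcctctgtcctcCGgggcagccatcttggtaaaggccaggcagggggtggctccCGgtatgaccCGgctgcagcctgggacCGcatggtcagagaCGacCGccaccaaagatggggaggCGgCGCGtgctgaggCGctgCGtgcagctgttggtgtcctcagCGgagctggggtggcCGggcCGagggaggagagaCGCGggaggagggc
The Cnr2 window held 3 CpG dinucleotides, the Abhd6 window 18 and the Napepld window 21, against a median of 6 over 32851 windows of the same length. The ratio of observed CpG to that predicted from the C and G content was 0.18 for Cnr2, 0.89 for Abhd6 and 0.72 for Napepld.

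The table held 12 such windows for 7 of the 9 genes, and none for Dagla and Abhd12. Cnr1 had 3 windows with ratios of 0.93, 0.95 and 0.33. Mgll had 2 windows at 0.80 and 1.15, and the other Abhd6 window, which overlaps the one shown, was at 0.94. Daglb was at 0.59 and Faah at 0.47, both with 9 CpG dinucleotides. The other Cnr2 window, at 0.22, also held 3. Of the 12 windows, 7 had a ratio of at least 0.6, as did 34.0% of all windows. Cnr2 was the single member with every window under 0.3.

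Over all named genes with a window, signal and CpG content went together. Of 8171 genes with a ratio of at least 0.6 in some window, 87.9% were above background. Of 8819 genes under 0.6 in every window, 37.6% were. Among the 5196 genes under 0.3 in every window, the class of Cnr2, 22.8% were above background and 3.04% exceeded the highest sensory receptor gene. Sensory receptor genes, which set the threshold, fall largely in the CpG-poor classes. Without them the shares above background were 88.0%, 42.7% and 27.5%. No sensory receptor gene can exceed the highest of them. Without them the shares above that gene were 39.6%, 11.1% and 3.82%. Faah and Daglb, the latter at 0.59 and so next to the limit, belonged to the class under 0.6. Both exceeded the highest sensory receptor gene, which 9.58% of that class with sensory receptor genes included did.

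**Figure D2:**
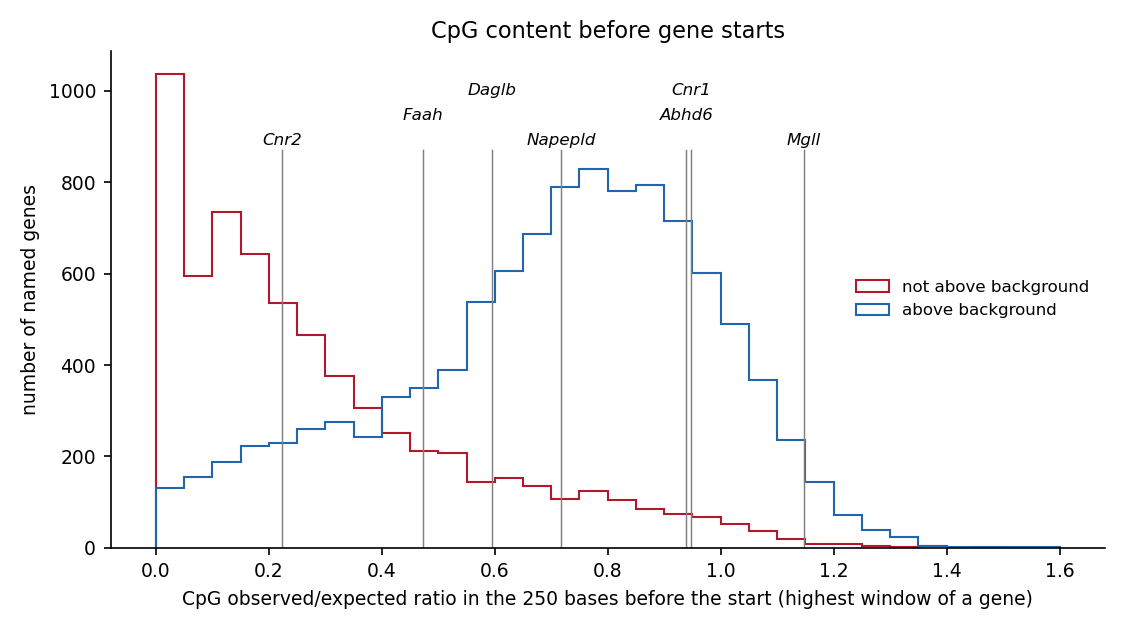
Number of named genes by CpG observed/expected ratio in the 250 bases before the start (the highest window of a gene), for genes above background (blue) and not above background (red), with vertical lines at the 7 members that had a window. Sensory receptor genes are included. Cnr2, itself above background, lies at 0.22, where most genes are red, and Cnr1, Abhd6 and Mgll lie at 0.94 or more.

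Short promoter motifs were searched on both strands of the 250 bases; none of the motifs contains another, and a match is a description of the letters. The TATA box TATAAA was in 0 of the 12 windows and in 12.4% of all windows. The GC box GGGCGG was in 4 windows, of Cnr1, Faah, Mgll and Abhd6, and in 32.7% of all. The CCAAT box was in 2 windows, of Cnr2 and Abhd6, against 33.8%, and the E-box CACGTG in 2, of Cnr1 and Mgll, against 6.02%. The GC box of Abhd6 and the CCAAT box of Cnr2 were in the windows of these genes that are not shown. The core AAGATGGC, known from sites of the factor YY1, was in 1 window, that of Napepld, and in 1.56% of all. Napepld carried it 1 time in each orientation. The cyclic AMP response element TGACGTCA and the NRF1 core GCGCATGC were in 0 of the 12 windows, against 1.55% and 2.26% of all.

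Both diacylglycerol lipases, which cut diacylglycerol to 2-AG, gave signal far above background. Dagla, the main 2-AG-producing enzyme of the adult brain, read 10.21 and 10.25 (probe set 17362646, gene identifier 269060). It stood 4.59 units over the thresholds on average and at least 1.81 over the highest sensory receptor gene. Daglb, known also for its role in microglia and macrophages, read 9.49 and 9.65 (probe set 17444346, gene identifier 231871), 3.93 units over the thresholds. The 2 arrays differed more for Daglb than for any other member, by 0.16 units. Of 1956 named genes within 0.5 units of its mean signal, 16.6% differed by as much or more.

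All 3 hydrolases of 2-AG were above every sensory receptor gene. Mgll encodes monoacylglycerol lipase, which removes most 2-AG in brain and is found in presynaptic terminals and astrocytes. It read 9.18 and 9.15 (probe set 17460665, gene identifier 23945). Abhd6, a membrane hydrolase of the postsynaptic side, read 9.82 and 9.78 (probe set 17297059, gene identifier 66082). Abhd12, a membrane hydrolase that also cleaves lysophosphatidylserine, read 10.94 and 10.92 (probe set 17392730, gene identifier 76192). Their mean margins over the thresholds were 3.53, 4.16 and 5.29 units. These 3 genes were also the members that read slightly lower on replicate 2 than on replicate 1, by at most 0.04 units.

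The anandamide enzymes gave signal as well. Napepld encodes a phospholipase D that releases anandamide and related N-acylethanolamines from membrane lipids. It read 8.55 and 8.64 (probe set 17445860, gene identifier 242864). It exceeded the highest sensory receptor gene by 0.15 units on replicate 1 and 0.22 on replicate 2. Faah encodes the amide hydrolase that ends anandamide action. It read 9.42 and 9.52 (probe set 17428509, gene identifier 14073), 1.02 and 1.10 units over the highest sensory receptor gene.

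Glial markers were read from the same RNA. Of all named genes, 60.3% were above background and 38.5% passed the out-of-tissue threshold. All 6 astrocyte markers and all 5 measured oligodendrocyte markers were above background, of which 4 and 4 passed the out-of-tissue threshold. Gfap, with a mean of 6.665, and Aqp4, at 6.93, did not pass it. Mog, at 7.17 and 7.13, passed it on replicate 2 alone. The summed log2 signals on replicate 1 and replicate 2 were 47.1 and 46.8 for astrocyte markers and 42.07 and 42.09 for oligodendrocyte markers. All 6 pan-neuronal markers, all 5 measured excitatory markers and all 4 measured GABAergic markers were above background, and all of these also passed the out-of-tissue threshold. All 7 markers of cholecystokinin-type interneurons, a class known for high Cnr1, were above background, with 5 above the out-of-tissue threshold. Sncg, with a mean of 5.89, and Slc17a8, at 6.435, did not pass it. Whether cells of this class were among those captured was not tested. All 4 measured markers of striatal projection neurons were above background and the out-of-tissue threshold, with summed log2 signals of 37.2 on both arrays. Of 5 endothelial markers 4 were above background and 1 above the out-of-tissue threshold, with summed log2 signals of 30.2 and 30.6. The sums cover lists of different length, so they do not compare amounts between cell types. Which of these cells carried the endocannabinoid messengers was not tested.

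The technical arrays repeated each other closely for these genes. The difference between them ranged from 0.02 to 0.16 units with a median of 0.04, against a median of 0.09 over named genes above background. Named genes of like signal to each member had median differences of 0.07 to 0.13 units. Daglb, at 0.16, and Faah, at 0.10, exceeded the 0.08 of theirs, and no other member exceeded its own. Replicate 2 was higher for 6 genes and lower for 3. For Cnr2, the gene nearest to background, the arrays differed by 0.13 units, which equalled the median difference of 3694 named genes of like signal. This spread is technical and does not hold the variation between animals.

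**Figure D3:**
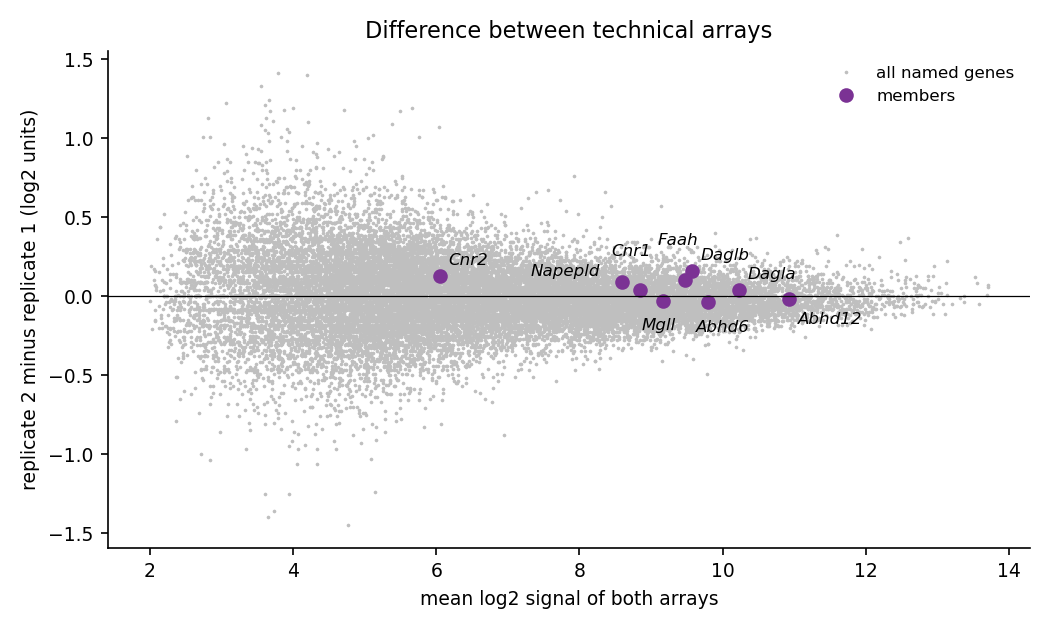
Difference between the arrays (replicate 2 minus replicate 1, log2 units) against mean log2 signal for all named genes (grey) and the 9 members (purple). The members lie within 0.16 units of 0, inside the cloud of genes of like signal.

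Beyond the 9 genes, 61 of 63 listed genes of the pathway were measured, and 46 of them (75.4%) were above background, beside 60.3% of all named genes. The highest sensory receptor gene was exceeded by 29 of the 61, beside 23.2% of all named genes, and the counts of each list stand against these shares. Genes that drive 2-AG synthesis, from Gq-coupled receptors to phospholipase C, had a median of 9.42, and 11 of the 12 measured exceeded background. Grm5, the metabotropic receptor whose activation evokes 2-AG release, read 10.75 and 10.60, and the muscarinic receptor Chrm3 9.77 and 9.83. Chrm1 averaged 8.96 ± 0.16 (SD, n = 2 technical arrays) over probe sets at 10.965 and 6.955. The exception was Plcb2, a phospholipase C known from blood and taste cells, which read 5.78 and 5.52 and passed on replicate 1 alone.

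Proteins through which CB1 acts, or which bind it, all exceeded background (16 of 16 measured). Their median was 10.07, and 13 of the 16 exceeded the highest sensory receptor gene. Among these 13, Kcnj3 averaged probe sets at 10.475 and 6.64. The inhibitory G protein subunits Gnai1, Gnai2 and Gnai3 averaged 11.22 ± 0.02, 10.08 ± 0.13 and 8.19 ± 0.02 (SD, n = 2 technical arrays). Cnrip1, which binds the tail of CB1 and was named after its value was seen, read 9.49 and 9.80. Sgip1, which slows the internalisation of CB1 and was likewise named afterwards, read 10.50 and 10.48.

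Other enzymes of N-acylethanolamine and 2-AG metabolism had a median of 6.99, and 12 of 18 (66.7%) were above background, a share near the 60.3% of all named genes. Among those above were Abhd4, at 7.62 and 7.69, and Gde1, at 11.16 on both arrays, which together form a route to anandamide that bypasses Napepld. Gdpd1, a lysophospholipase D, read 10.43 and 10.48. The 6 genes not above background on both arrays were Gdpd3, Plaat5, Ptpn22, Alox12, Alox15 and Ces1d, with means from 4.01 to 5.57. Of these, Alox15, a lipoxygenase, passed on replicate 1 alone.

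Other receptors and channels proposed to sense these lipids were mostly not above background. Only 3 of 10 passed and the median was 5.40. The receptor Gpr55 read 5.31 and 5.56, Gpr18 5.08 and 4.46 and Gpr119 4.50 and 4.05. Those above background were the channel Trpv2, at 6.71 and 6.57, from probe sets at 7.81 and 5.465 on different sides of the threshold, and the nuclear receptors Ppard, at 8.14 ± 0.19, and Pparg, at 6.96 ± 0.05 (SD, n = 2 technical arrays). Ppara, the nuclear receptor for the anandamide relative oleoylethanolamide, named after its value was seen, read 5.29 and 5.85 and passed on replicate 2 alone. Of the 10, only Ppard passed the out-of-tissue threshold.

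Fatty acid binding proteins carry anandamide through the cytosol to its hydrolase. Of 5 measured carriers 4 were above background, with a median of 7.83. Fabp3 averaged 7.87 over probe sets at 9.695 and 6.035, Fabp5 averaged 7.53 over 4 probe sets between 5.83 and 8.345, and Fabp7, a protein of astrocytes and progenitors, was at 7.83 ± 0.07 (SD, n = 2 technical arrays). Fabp4, known from fat cells, read 3.50 and 3.60 and was not above background.

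**Figure D4:**
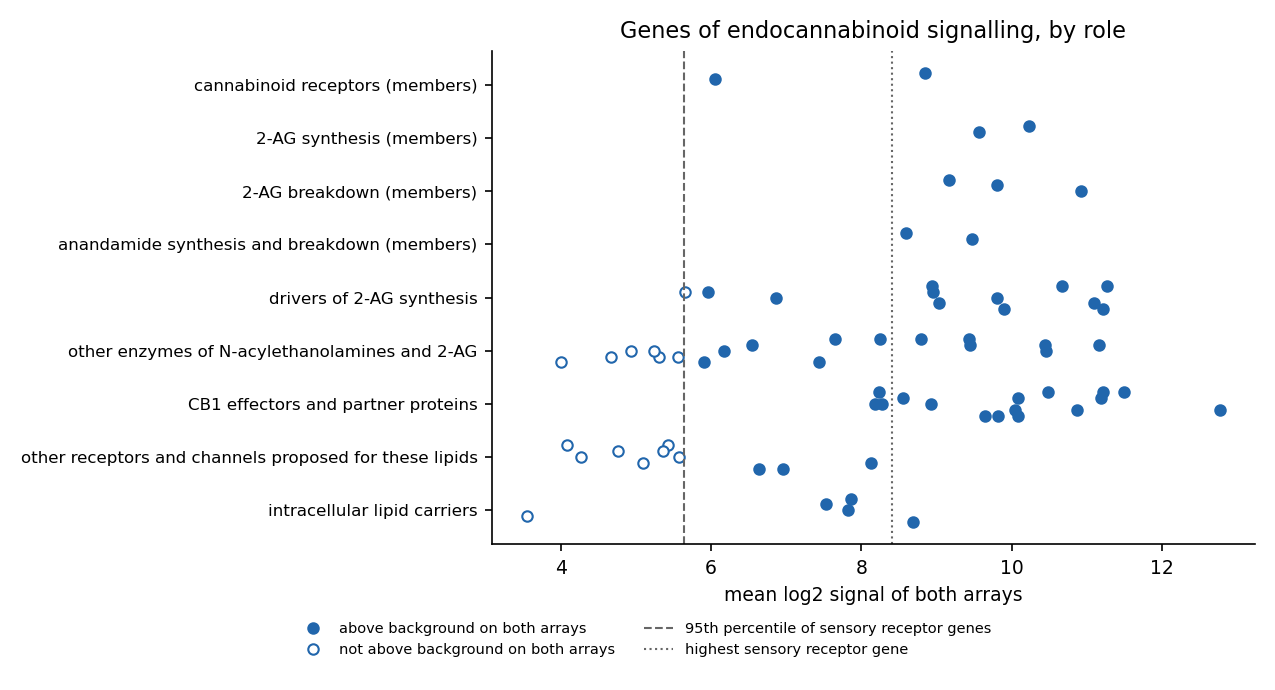
Mean log2 signal over both arrays for each measured gene of the pathway, in rows by role; filled points were above background on both arrays and open points were not. All 16 CB1 effectors and partners are filled, and 7 of the 10 other proposed receptors and channels are open.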

How the data were processed

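The deposited table gives 1 log2 value per probe set for each of 2 arrays; the authors' background correction, summarisation, normalization and log base are not stated in any source used here, and the log2 scale is inferred from values between 1.66 and 14.18. Of 34472 probe sets, 23521 named 1 gene in the platform annotation and were averaged by gene, and 1814 named several and named none here. Scanner files were not used here, every column of per-sample values was used, and the number of arrays limits the precision. No p-value is given, because the arrays are technical replicates of 1 group.

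The thresholds were percentiles of sensory receptor genes (symbols starting Olfr or Vmn) or of out-of-tissue genes on each array. The members and lists were chosen with earlier results of these data known, and the spelling of 3 Plaat symbols was corrected after the table's names were seen. The planned rule named the members, Drd2 and the first 3 measured genes of each pathway list. It also named genes whose call differed from that of most of their list. Cnrip1, Sgip1, Ppara and the families of the closing section were picked after values were seen. So were the markers named for not passing the out-of-tissue threshold on both arrays. Kcnj3, Odf1 and Xirp2 were named afterwards for probe sets that lay far apart. The alternatives were 10 planned settings and 1 chosen after seeing the data (the highest sensory receptor gene). The promoter windows and motifs were likewise chosen afterwards. Python 3.11.15, pandas 2.3.3, numpy 2.4.6 and matplotlib 3.10.9 were used, and the calls were tested on simulated data.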

Additional observations from a re-analysis of the deposited data

How the results depend on the processing

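Of the 9 members, 8 kept their call under all 11 alternatives; their margins over the threshold, averaged over the arrays used, were 0.19 log2 units or more. Cnr2 kept its call under 8 alternatives and lost it under 3, at -0.58 units relative to the 99th percentile of sensory receptor genes, -1.07 relative to the out-of-tissue threshold and -2.36 relative to the highest sensory receptor gene. The out-of-tissue threshold rests on 33 genes, of which 2 lay above it, and the highest sensory receptor gene is a single gene per array. Odf1, which lay above the out-of-tissue threshold, averaged probe sets at 4.98 and 10.015. Xirp2, also among the 33 genes, averaged probe sets at 4.47 and 7.805. The count of members above background was thus 9 or 8. The count of other pathway genes, 46 of 61, fell to 29 against the highest sensory receptor gene and was 41 and 39 against the 99th percentile and the out-of-tissue threshold. The 99th percentile and the highest sensory receptor gene are stricter by construction, whereas the out-of-tissue threshold comes from other genes and measured higher. On single arrays it was 47 and 48, with all 9 members called. Over all named genes the count was 13374, against 8541 at the out-of-tissue threshold and 5135 above the highest sensory receptor gene. The largest difference between arrays among the members was 0.16, 0.18 after quantile normalization and 0.15 after median centring. No paired analysis was possible because there is 1 group. Without detection values from the scanner, a signal such as that of Cnr2 could not be set against the array's own blank probes.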

Other observations

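Gene families around the endocannabinoid genes were taken whole, by symbol, after the data were seen, and are given as values. Of 21 named genes of the Abhd series, nearly all of them hydrolase-fold proteins and Abhd6 and Abhd12 among them, 19 were above background, 13 passed the out-of-tissue threshold and 8 exceeded the highest sensory receptor gene. Of all named genes, 60.3%, 38.5% and 23.2% did so. Abhd12b, a relative of Abhd12, read 5.28 on both arrays and was not above background, nor was Abhd16b at 5.04 and 4.54. Abhd16a, which makes the lysophosphatidylserine that Abhd12 cleaves, read 9.36 and 9.53. Abhd17a, Abhd17b and Abhd17c, which remove palmitate from synaptic proteins, averaged 8.64, 8.54 and 9.21.

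Diacylglycerol kinases use the same substrate as the diacylglycerol lipases. Of 8 named members 7 were above background and passed the out-of-tissue threshold, among them Dgkh at 10.30 and 10.24 and Dgkd at 9.60 and 9.49. Dgkk, at 5.08 and 5.14, was not above background. Receptors for sphingosine 1-phosphate and lysophosphatidic acid are relatives of the cannabinoid receptors. Of 9 named members 6 were above background, near the share of all named genes, and 3 passed the out-of-tissue threshold. S1pr1, at 8.46 and 8.65, was the 1 member that exceeded the highest sensory receptor gene. S1pr4, a receptor of lymphocytes, read 5.55 and 5.42 and was not above background. All 6 named genes of the Pld series were above background, 2 passed the out-of-tissue threshold and 1 exceeded the highest sensory receptor gene. For the 4 named genes of the Plcb series these counts were 3, 2 and 2. The shares of all named genes were 60.3%, 38.5% and 23.2%.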
